A study of Mus musculus with 577 samples.

Results

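The genes described here are 8 early oocyte transcription factors of the mouse, Figla, Sohlh1, Sohlh2, Nobox, Lhx8, Tbpl2, Foxo3 and Taf4b. They were chosen by symbol, and each was 1 of the 22060 protein-coding genes in the deposited gene count tables. Reads were counted near the 3′ ends of genes, and a level is given as log2 (RPM+1), where RPM is the number of reads after scaling the protein-coding genes of a library to 1000000 reads.

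Single cells were cut out of stained ovary sections by laser capture microdissection (LCM) and their messenger RNA was amplified and sequenced near its 3′ end. DRaqL is the detergent lysis step of the study, which is joined to different cDNA amplification chemistries, so that the same kinds of cells appear in several datasets. The ovaries came from 8-week-old female mice, and the labels name no strain, transgene or in vivo treatment. Fixation and amplification differed between datasets, and the dissociated oocytes and granulosa cells were kept in dibutyryl-cAMP, an agent that holds oocytes in meiotic arrest, while the LCM cells beside them came from the snap-frozen other ovary of that mouse, which was in proestrus. Each LCM oocyte was cut from a section that held its nucleus, so that its library represents part of the cell, whereas dissociated oocytes were taken whole.

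Oocytes were grouped by the follicle they lay in, either a primary follicle, with a single layer of granulosa cells, or a follicle of the secondary to antral stages, called later oocytes below. Frozen, alcohol-fixed sections gave 14 primary and 30 later oocytes with DRaqL-SC3-seq, 7 and 11 with SMART-Seq v4 without DRaqL, and 6 and 9 with DRaqL-SMART-Seq v4. Sections fixed in formalin for 24 h and digested with protease gave 5 primary and 7 later oocytes. Further later oocytes were 8 from which 2 serial sections each were sequenced, and 8 from LCM set beside 14 grown oocytes dissociated from the ovary. Granulosa cells, the somatic cells around the oocyte, were taken singly (330 cells, of which 35 were dissociated). They were also captured in pools of about 10 cells that lay next to the oocyte (neighboring, 7 pools) or away from it (non-neighboring, 7 pools), and as the whole granulosa of sectioned follicles (bulk, 7 samples). Not among the 330 are 3 DRaqL-SC3-seq granulosa cells that the study set aside because their profiles were mixed with those of oocytes. No such cells were set aside in the other datasets here. Embryonic stem cells (mESCs) cultured in 2i and LIF, with 45 cells freshly dissociated and 36 captured from sections of frozen cell blocks, served as a cell type outside the ovary.

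Figla, Sohlh1 and Sohlh2 encode basic helix-loop-helix (bHLH) proteins, which bind the short DNA element called an E-box as dimers. Nobox and Lhx8 encode homeobox proteins that, like the bHLH factors, are needed for the primordial follicle to survive and enter growth. Tbpl2 encodes the oocyte paralog of the TATA-binding protein and Taf4b a gonad-enriched subunit of TFIID, so that both act at core promoters rather than at single target genes. Foxo3 encodes a forkhead factor that holds primordial oocytes dormant and that is sent out of the nucleus when the PI3K and AKT pathway is active.

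On the GRCm38 build with GENCODE M21, Figla lay at chr6:86016171-86020996, Sohlh1 at chr2:25842995-25847248, Sohlh2 at chr3:55182028-55209957 and Nobox at chr6:43303674-43309554. Lhx8 lay at chr3:154306294-154330659, Tbpl2 at chr2:24071721-24096595 and Foxo3 at chr10:42181841-42276755. The sequences before the start sites of the 3 bHLH genes are shown because these genes differed most between the stages. That of Nobox, whose mean log2 level differed by less than 2-fold in each dataset, is shown beside them. They are given 5′ to 3′ on the strand of the gene, from RefSeq on GRCm38, with matches to the E-box letters CANNTG in capitals. Figla (chr6:86016941-86017190, plus strand), Sohlh1 (chr2:25847249-25847498, minus strand), Sohlh2 (chr3:55181794-55182027, plus strand) and Nobox (chr6:43309555-43309804, minus strand) read as follows.
Figla: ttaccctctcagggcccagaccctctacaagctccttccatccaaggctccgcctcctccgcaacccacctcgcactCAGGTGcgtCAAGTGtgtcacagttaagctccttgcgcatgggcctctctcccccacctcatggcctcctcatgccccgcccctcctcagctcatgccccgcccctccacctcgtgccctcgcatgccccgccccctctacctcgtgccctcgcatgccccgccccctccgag
Sohlh1: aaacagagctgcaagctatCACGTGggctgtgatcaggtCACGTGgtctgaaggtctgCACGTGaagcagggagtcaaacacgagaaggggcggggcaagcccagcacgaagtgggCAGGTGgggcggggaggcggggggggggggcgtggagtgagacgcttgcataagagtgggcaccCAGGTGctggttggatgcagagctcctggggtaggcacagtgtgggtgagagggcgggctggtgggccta
Sohlh2: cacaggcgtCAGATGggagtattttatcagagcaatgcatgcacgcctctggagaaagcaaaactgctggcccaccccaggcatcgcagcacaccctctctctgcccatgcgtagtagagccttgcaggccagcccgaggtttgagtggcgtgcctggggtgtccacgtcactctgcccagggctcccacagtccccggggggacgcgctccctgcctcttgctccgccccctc
Nobox: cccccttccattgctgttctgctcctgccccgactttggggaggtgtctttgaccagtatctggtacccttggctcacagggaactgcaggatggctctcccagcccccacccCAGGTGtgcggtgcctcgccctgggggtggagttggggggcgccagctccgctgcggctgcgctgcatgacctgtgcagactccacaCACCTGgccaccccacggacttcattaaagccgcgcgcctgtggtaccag
The Sohlh1 window held 5 E-boxes, of which 3 read CACGTG, whereas the Figla and Nobox windows held 2 E-boxes each and the Sohlh2 window 1. Of 32851 windows of 250 bases before annotated start sites, 66.2% held at least 1 E-box, 1.15% held at least 5, 6.02% held CACGTG, and 0.0609% held it 3 times or more. Neither TAATTG, a core letter sequence of homeobox binding, nor TATAAA was found on either strand of the 4 windows, against 7.17% and 12.4% of all windows that held them. The Sohlh2 window had 234 bases because bases of an annotated exon were left out. The Figla window lay upstream of the RefSeq start but inside an intron of a longer GENCODE transcript. These letter matches describe the windows only, and no binding was measured in this series.

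The single-oocyte libraries differed in depth, from 873206 to 2338750 protein-coding reads in primary and from 1309694 to 1887918 in later oocytes of DRaqL-SC3-seq, from 834270 to 2900372 and from 442256 to 4127568 in SMART-Seq v4, from 467352 to 3278505 and from 133799 to 2472344 in DRaqL-SMART-Seq v4, and from 284012 to 1997001 and from 188906 to 1434901 after formalin. The summed level of 14 oocyte marker genes had medians of 9447 RPM in primary and 36922 RPM in later oocytes of DRaqL-SC3-seq, so the labelled cell type was seen in both stages. Of these markers, 13 were at least 2-fold higher in later oocytes there, where 33.3% of all genes were. The sum therefore also differs with stage. The summed level of 10 granulosa markers had medians of 495 and 85.4 RPM in the same oocytes, with Inha the most abundant, against 5657 RPM in single granulosa cells of that dataset. Granulosa markers were also higher in primary oocytes of the other datasets, with medians of 529 against 222, 358 against 133 and 764 against 383 RPM. The part of these granulosa reads in the stage differences was not tested.

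Libraries that stood apart were found before the stages were compared. Among the 14 primary oocytes of DRaqL-SC3-seq, 5 pairs whose label numbers were 8 apart resembled each other far more than any other pair. Their deviations from the primary mean, over 6511 genes, had Pearson's r of 0.95 for O37 and O45, 0.85 for O36 and O44, 0.84 for O33 and O41, 0.78 for O35 and O43, and 0.62 for O34 and O42, whereas the highest r among the other pairs of the 91 was 0.06. In the primary oocytes of the other 3 datasets the highest r was 0.03, 0.17 and 0.12. The mean chi-square per gene of the pairs was 3.49, 8.15, 9.76, 30.1 and 50.3, where sampling noise gives 1 and the other pairs had a median of 72.7, so no pair was the same library within sampling noise. Separate amplifications of 1 cell could also differ by that much, and whether a pair came from 1 oocyte is not labelled, so the 14 values may stand for fewer cells. For each of the 8 genes the stage difference of this dataset is therefore also given with the pairs averaged, which leaves 9 values for 14. For genes of the lists it is not. Among the 30 later oocytes r reached 0.67, with 40 of 435 pairs over 0.5 and none of these 8 apart, and elsewhere the same distance in number joined 1 pair of granulosa cells (r = 0.60) and 1 pair of fresh mESCs (r = 0.87).

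The datasets also differed in how the stages were spread over library pools, the sets of libraries that share an S number in the labels. In SMART-Seq v4, all primary oocytes were in 1 pool with a single later oocyte, replicate 9, and the other 10 later oocytes were in another pool. In DRaqL-SMART-Seq v4, primary and later oocytes were in different pools, so pool and stage cannot be told apart there. The formalin oocytes were all in 1 pool, and the labels of DRaqL-SC3-seq name none. The labels name no mouse for any oocyte, and per the study's text its amplification methods were compared on sections of a single ovary, so the 4 datasets may share 1 animal and are not independent repeats. Each stage of each dataset therefore counts as 1 sample, and spreads below are over cells, with no test. An interval beside an RPM of summed reads is an exact Poisson 95% interval, and one beside a share of cells is the 95% interval of Clopper and Pearson. Since the reads carry no molecular identifiers, both cover counting error only.

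All 3 bHLH genes were lower in later than in primary oocytes in all 4 datasets, Sohlh1 by the widest margin. The other 5 genes differed less and in both directions. A gene was counted as lower or higher where its mean log2 (RPM+1) differed by at least 1, that is 2-fold, and all 8 genes passed the filter for low levels, a mean of at least 1 over the oocytes, in every dataset. By that count 3 genes were lower in later oocytes of DRaqL-SC3-seq, 4 in SMART-Seq v4, 3 in DRaqL-SMART-Seq v4 and 3 after formalin, where 14.6%, 15.7%, 21.4% and 24.2% of all genes were. Higher in later oocytes were 1 (Foxo3), 0, 1 (Taf4b) and 1 (Foxo3) genes, against 33.3%, 33%, 35.8% and 27.4% of all genes.

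**Figure D1:**
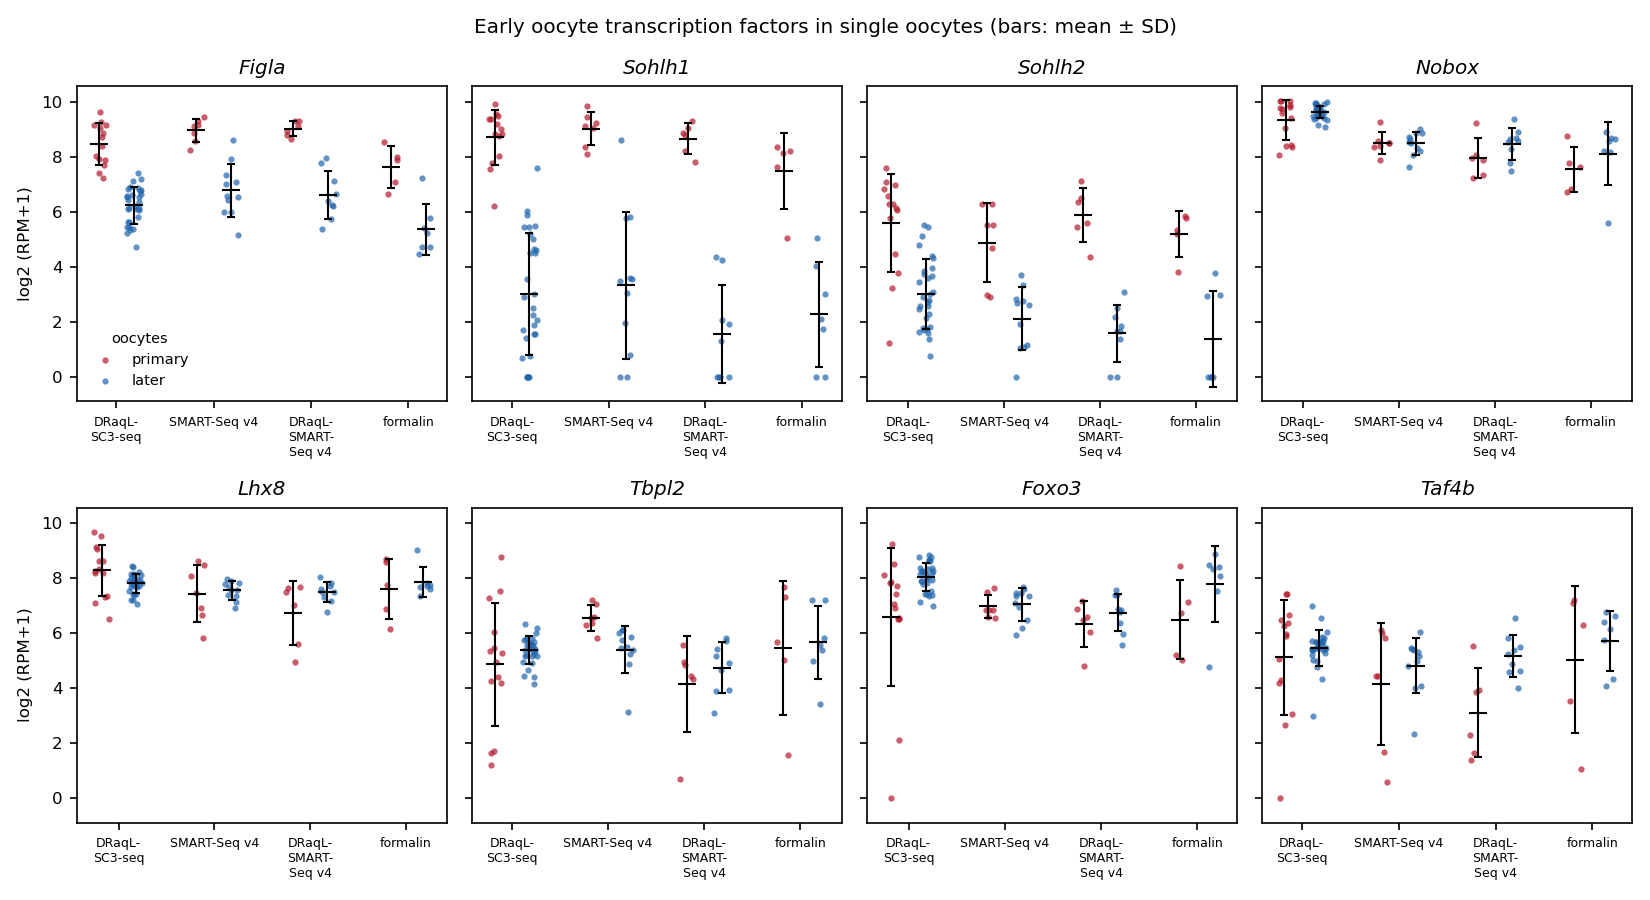
Levels of the 8 genes as log2 (RPM+1) on the vertical axis in single primary (red) and later (blue) oocytes of the 4 datasets on the horizontal axis. Each point is 1 oocyte, and the bars give mean ± SD over cells. Sohlh1 values of primary oocytes lie between 5.06 and 9.91, and 13 of 57 later oocytes lie at 0.

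Sohlh1 encodes a germ cell bHLH factor that is needed as oocytes pass from primordial to primary follicles. In DRaqL-SC3-seq its lowest, median and highest values were 72.1, 482 and 960 RPM over 14 primary oocytes and 0, 5.55 and 191 RPM over 30 later oocytes. Reads were present in every primary oocyte and absent from 5 later ones, and the groups overlapped in a single later oocyte (O20, log2 7.58) that lay above the lowest primary oocyte (O39, log2 6.19). The mean log2 level was 8.70 ± 1.00 (SD, n = 14) in primary and 3.00 ± 2.21 (SD, n = 30) in later oocytes, a difference of -5.70, which was the most negative of 12910 genes. Of the reads summed over cells, Sohlh1 took 485 RPM (475 to 494) in primary and 21.2 RPM (19.9 to 22.5) in later oocytes. With the alike pairs averaged the difference was -5.61, and with the 4 unpaired primary oocytes alone it was -5.32.

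The same gene was near the far end of the range in the other chemistries. In SMART-Seq v4, Sohlh1 ran from 274 through a median of 556 to 917 RPM in 7 primary oocytes, and from 0 through 10.3 to 392 RPM in 11 later oocytes, a difference of -5.69 in the mean log2 level that ranked 4 of 13220. The 392 RPM belonged to replicate 9, the later oocyte in the pool of the primary oocytes, whose log2 level of 8.62 lay within the primary range of 8.10 to 9.84, while the other 10 later oocytes reached no more than 5.81. That oocyte also had an oocyte marker sum of 13590 RPM, the lowest of the 11 later oocytes and within the range of the primary oocytes, and 9.89 protein-coding reads per spike-in read, against a median of 72.4 in later oocytes. Its Sohlh2, at a log2 level of 1.07, lay instead within the range of the other later oocytes (0 to 3.69) and below every primary oocyte (2.91 or more), and its Tbpl2 (5.48) and Foxo3 (6.48) also lay below the lowest primary oocyte. Whether its stage, its pool or its label sets it apart was not tested, and the difference without it was -6.22. In DRaqL-SMART-Seq v4, Sohlh1 ran from 221 through 448 to 622 RPM in 6 primary oocytes and from 0 through 1.49 to 19.3 RPM in 9 later oocytes, with 4 at 0. The 2 stages did not overlap there, and the difference of -7.11 ranked 3 of 12855.

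After formalin fixation the 5 primary oocytes had 32.4, 324, 282, 197 and 293 RPM of Sohlh1. The 7 later oocytes had 31.9, 15.4, 0, 6.97, 2.36, 3.30 and 0 RPM. The stages thus met without overlapping, the lowest primary oocyte lying just above the highest later one. The mean log2 level was 7.48 ± 1.38 (SD, n = 5) in primary and 2.27 ± 1.91 (SD, n = 7) in later oocytes, a difference of -5.20 that ranked 2 of 13175 genes.

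Figla encodes the bHLH factor that switches on zona pellucida genes and without which primordial follicles do not form. In DRaqL-SC3-seq it ran from 149 through a median of 377 to 778 RPM in primary oocytes and from 25.1 through 76.6 to 166 RPM in later oocytes. Every oocyte of either stage had Figla reads, unlike Sohlh1, and 1 later oocyte lay above the lowest primary oocyte. The mean log2 level was 8.46 ± 0.76 (SD, n = 14) in primary and 6.23 ± 0.66 (SD, n = 30) in later oocytes, 2.23 lower, and it was 2.38 lower with the alike pairs averaged. Primary and later values were 8.96 ± 0.42 (SD, n = 7) and 6.78 ± 0.96 (SD, n = 11) in SMART-Seq v4, 9.01 ± 0.28 (SD, n = 6) and 6.60 ± 0.87 (SD, n = 9) in DRaqL-SMART-Seq v4, and 7.63 ± 0.76 (SD, n = 5) and 5.36 ± 0.94 (SD, n = 7) after formalin. The differences of -2.18, -2.41 and -2.27 were close to that of DRaqL-SC3-seq, although the fixation and the chemistry differed.

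After formalin the 5 primary oocytes had 374, 99.1, 254, 134 and 236 RPM of Figla, and the 7 later oocytes ran from 21.2 through 36.2 to 149 RPM. One later oocyte therefore lay within the primary range. In DRaqL-SMART-Seq v4 the lowest primary oocyte, at 393 RPM, lay above the highest later oocyte, at 247 RPM. In SMART-Seq v4 the highest later oocyte was again replicate 9, with 386 RPM.

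Sohlh2 encodes the partner with which the Sohlh1 protein forms dimers, and its levels were lower and more scattered. In DRaqL-SC3-seq it ran from 1.35 through 72.6 to 193 RPM in primary oocytes and from 0.673 through 6.19 to 44.3 RPM in later oocytes. One primary oocyte was so low that 29 of 30 later oocytes lay above it, and 4 primary oocytes lay below the highest later one. The mean log2 level was 5.59 ± 1.78 (SD, n = 14) in primary and 3.02 ± 1.27 (SD, n = 30) in later oocytes, a difference of -2.57 that became -2.31 with the alike pairs averaged and -1.40 with the 4 unpaired oocytes alone. In SMART-Seq v4 it ran from 6.53 through 44.3 to 77.3 RPM in primary and from 0 through 5.17 to 11.9 RPM in later oocytes, and in DRaqL-SMART-Seq v4 from 19.3 through 64.1 to 138 RPM and from 0 through 2.15 to 7.47 RPM. The difference was -2.77 in the first, -4.30 in the second and -3.80 after formalin. The 5 formalin primary oocytes had 12.96, 56.6, 35.2, 38.9 and 53.8 RPM, and 4 of the 7 later ones had no Sohlh2 reads.

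Values that did not overlap between the stages, with primary oocytes higher, were found for all 3 bHLH genes in DRaqL-SMART-Seq v4, where 4.56% of all genes met that criterion, and for Sohlh1 and Sohlh2 after formalin, where 2.49% did. No member met it in DRaqL-SC3-seq or SMART-Seq v4, where 0.0465% and 1.78% of all genes did.

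By mean log2 level, the homeobox genes differed by less than 2-fold between the stages in each dataset. Nobox, whose product binds the promoters of oocyte genes such as Gdf9, ran from 263 through 809 to 1042 RPM in primary and from 534 through 802 to 1000.1 RPM in later oocytes of DRaqL-SC3-seq. Its mean log2 level was 9.32 ± 0.72 (SD, n = 14) against 9.62 ± 0.23 (SD, n = 30), a difference of 0.30 (0.28 with the alike pairs averaged) that was smaller than the spread between primary cells. The differences in the other datasets were -0.01, 0.52 and 0.57, and the ranges of the stages overlapped in all 4. Lhx8, whose product is a LIM homeobox factor of early oocytes, had log2 means of 8.28 ± 0.94 (SD, n = 14) and 7.82 ± 0.35 (SD, n = 30), and its differences of -0.46, 0.12, 0.75 and 0.23 took both signs. In DRaqL-SC3-seq the difference of Lhx8 was -0.33 with the pairs averaged and 0.11 with the 4 unpaired oocytes alone. Over the alternatives tried, apart from scaling to spike-in reads, Nobox after formalin ran from 0.36 to 1.26. Lhx8 in DRaqL-SMART-Seq v4 ran from 0.15 to 1.03, so both passed the 2-fold limit at the upper end. After formalin, the 5 primary oocytes had 104.8, 112.2, 197, 219 and 431 RPM of Nobox and 70.2, 412, 116.2, 384 and 215 RPM of Lhx8.

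The core promoter genes varied widely among primary oocytes. Tbpl2 ran from 1.32 through 33.9 to 436 RPM in primary and from 16.9 through 42.0 to 80.3 RPM in later oocytes of DRaqL-SC3-seq, so the SD of its log2 level was 2.24 in primary and 0.51 in later cells. Its differences of 0.51 (0.43 with the pairs averaged), -1.15, 0.60 and 0.21 took both signs, and SMART-Seq v4 was the dataset where it counted as lower, at -0.97 with a pseudocount of 10. Over the alternatives tried, the positive differences of Tbpl2 turned to as low as -0.64 in DRaqL-SC3-seq, -0.09 in DRaqL-SMART-Seq v4 and -0.76 after formalin. Taf4b, which lies on chromosome 18, ran from 0 through 59.6 to 172 RPM in primary and from 6.94 through 43.9 to 126 RPM in later oocytes of DRaqL-SC3-seq. Its mean differences of 0.33, 0.66, 2.07 and 0.69 were all positive, but RPM of summed reads in DRaqL-SC3-seq was 61.8 (58.5 to 65.3) in primary and 47.1 (45.2 to 49.1) in later oocytes. The sign for Taf4b in that dataset therefore rested on how cells were averaged, and the difference was 0.92 with the pairs averaged and 2.98 with the 4 unpaired primary oocytes alone. After formalin the sign turned as well, to -0.48 with summed reads and to -0.30 without primary replicate 1, and in SMART-Seq v4 it was -0.13 with replicate 9 as the only later cell. After formalin the 5 primary oocytes had 31.3, 2.00, 158, 204 and 50.5 RPM of Tbpl2 and 1.08, 146, 10.6, 136 and 77.4 RPM of Taf4b, and the oocyte lowest in Tbpl2 was the highest in Taf4b.

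Foxo3 ran from 0 through 151 to 598 RPM in primary and from 125 through 282 to 460 RPM in later oocytes of DRaqL-SC3-seq. The cells at the bottom were O36, with no Foxo3 read, and its alike partner O44, at a log2 level of 2.12. The mean log2 level was 6.60 ± 2.51 (SD, n = 14) against 8.05 ± 0.51 (SD, n = 30), a difference of 1.45 that was 1.32 with the pairs averaged and 0.86 with the 4 unpaired oocytes alone, where it no longer reached 2-fold, nor did it with summed reads (0.44). Differences were 0.07 in SMART-Seq v4, 0.42 in DRaqL-SMART-Seq v4 and 1.29 after formalin, and the stages overlapped in all 4 datasets. After formalin the difference was 0.92 without primary replicate 1 and 0.96 without primary replicate 2.

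**Figure D2:**
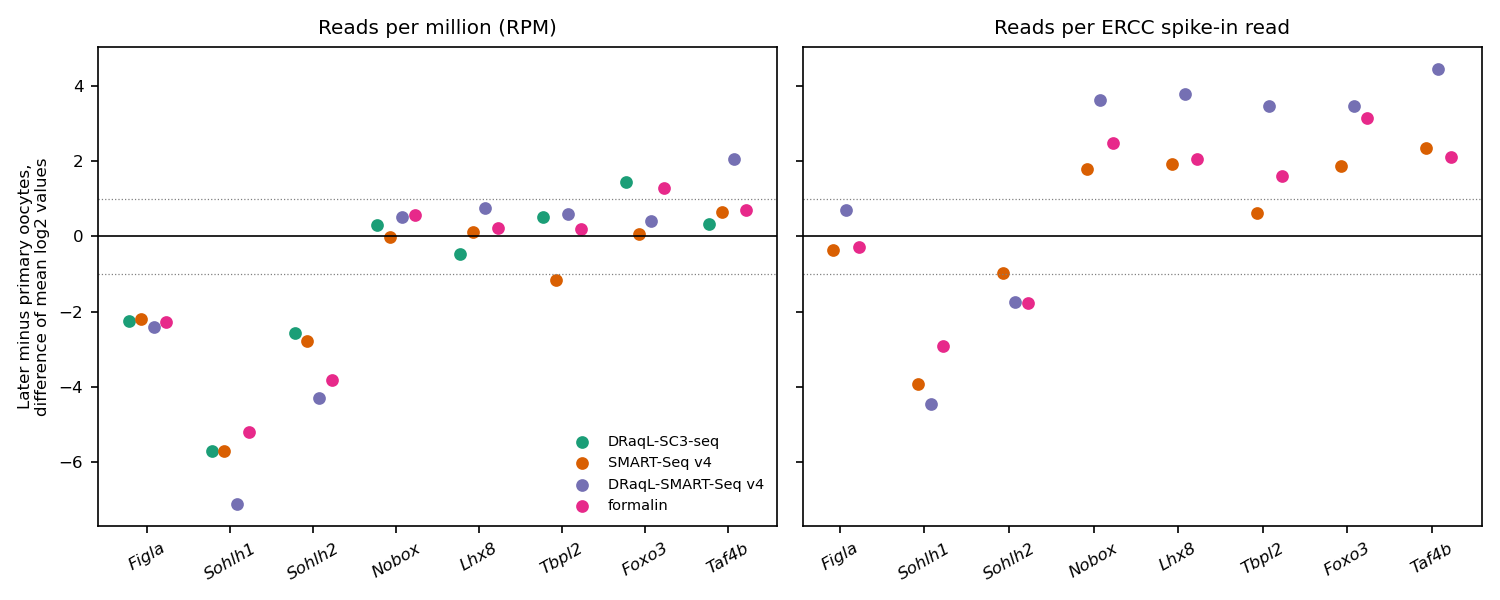
Difference between later and primary oocytes in mean log2 level (vertical axis) for each gene (horizontal axis), as RPM on the left and as reads per ERCC spike-in read on the right, with 1 point per dataset. The dotted lines mark a difference of 1 either way. On the left the 3 bHLH genes lie between -7.11 and -2.18, and on the right Sohlh1 lies between -4.44 and -2.90 while Nobox lies between 1.80 and 3.63.

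A level in RPM is a share of the messages in a library, so a gene can have a lower RPM because other messages are more abundant. ERCC RNAs, a synthetic mixture added to each lysate, allow reads to be set against a fixed input, and their counts were used for SMART-Seq v4, DRaqL-SMART-Seq v4 and formalin. ERCC counts of the DRaqL-SC3-seq oocytes were not analysed here. Protein-coding reads per ERCC read had medians of 18.7 in primary and 72.4 in later oocytes of SMART-Seq v4, 12.7 and 134.9 in DRaqL-SMART-Seq v4, and 6.85 and 26.3 after formalin, which is 3.88, 10.6 and 3.84 times more in later oocytes. The median gene had a difference of 1.86, 2.83 and 1.60 on the log2 scale per ERCC read, while 73.8%, 86.5% and 67.3% of genes were higher and 1.97%, 1.73% and 2.61% lower in later oocytes by at least 1.

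Per ERCC read Sohlh1 was still lower in later oocytes, with differences of -3.93, -4.44 and -2.90. Sohlh2 had differences of -0.98, -1.73 and -1.77, so that 1, 2 and 2 of the 8 genes counted as lower. Figla, in contrast, had differences of -0.37, 0.70 and -0.27, within 2-fold of equal amounts per spike-in read, although its share of messages was 4.53-, 5.32- and 4.84-fold smaller. The remaining genes had positive differences per ERCC read, as most genes did, Nobox of 1.80, 3.63 and 2.48, Lhx8 of 1.93, 3.78 and 2.07, Foxo3 of 1.88, 3.46 and 3.15, Taf4b of 2.35, 4.45 and 2.12, and Tbpl2 of 0.63, 3.48 and 1.61, the first of them under 2-fold. Larger cells also leave more cytoplasm in a section, and the amount captured was not measured, so a value per ERCC read is not a value per cell.

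Later oocytes were not alike in these genes. Over the 30 later oocytes of DRaqL-SC3-seq, Sohlh1 and Figla had Pearson's r of 0.70, Sohlh1 and Sohlh2 0.67, Sohlh1 and Foxo3 -0.78, Figla and Foxo3 -0.73, Sohlh2 and Foxo3 -0.63, and Nobox and Lhx8 0.57. Over the 14 primary oocytes the same pairs, in that order, had an r of 0.14, 0.47, -0.06, 0.54, 0.01 and -0.06. Set against the summed oocyte markers of the same 30 libraries, r was -0.73 for Sohlh1, -0.44 for Figla, 0.73 for Foxo3 and 0.56 for Nobox. Thus the later oocytes with little Sohlh1 tended to be those with much Foxo3 and high marker sums. Several of the markers are genes that the study named for the growth axis of the same oocytes. Their sum is therefore partly a measure of stage taken from these data, and not separate evidence. Points share library chemistry and scaling, marker sums and members share the denominator of RPM, and these values are descriptions without a test.

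Among 8350 genes, those whose levels followed Sohlh1 most closely over the 44 oocytes were 4930562C15Rik (r = 0.93), Nos1 (r = 0.91) and Gnas (r = 0.90). For Figla they were Gm21092, Slc38a1 and 4930562C15Rik, all with an r of 0.86, and for Sohlh2 they were Hdac6, Cgrrf1 and 2410089E03Rik, all 0.81. The order for Sohlh1 came mostly from the stages and the later cells, since within the 14 primary oocytes 4930562C15Rik had an r of 0.15 and within the 30 later ones 0.87. For Foxo3 the closest genes were Wdr26, Daglb and Nlrp4b, all 0.85. For Nobox, Lhx8, Tbpl2 and Taf4b they were Mus81 (0.82), Erbb2ip (0.78), Pdcd6 (0.79) and Prkrip1 (0.78), with an r of 0.90, 0.93, 0.85 and 0.86 within the primary oocytes, where the alike pairs lie, and at most 0.35 within the later oocytes. All points share the chemistry, and the choice was made on these r values.

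Serial sections tell how well a section stands for its oocyte. In 8 later oocytes sequenced from 2 sections each, with 4232302 to 17506401 reads per library, Sohlh1 was read in both sections of 3 oocytes, in neither section of 3 and in 1 section of 2. The median absolute log2 difference between sections of the same oocyte was 0.17 for Sohlh1 (the 3 oocytes without reads count as 0), against 1.54 between sections of different oocytes. In the oocytes with Sohlh1 reads the differences were 0.01, 0.33, 0.75, 1.11 and 2.42, the last from 25 reads in 1 section and 0 in the other. The median was 0.27 against 0.54 for Figla, 0.19 against 0.31 for Nobox, 0.16 against 0.31 for Foxo3 and 0.28 against 0.52 for Taf4b. Sections of 1 oocyte differed by up to 1.63 for Taf4b, however, and its SD within oocytes (0.58) exceeded the SD of the oocyte means (0.52). For Sohlh2, at 1.43 against 1.51, for Tbpl2, at 0.74 against 0.67, and for Lhx8, at 0.24 against 0.29, sections of 1 oocyte differed about as much as sections of different oocytes.

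Another kind of library from the amplified cDNA of 5 of the DRaqL-SC3-seq later oocytes, made with Y-adapters, was not limited to the 3′ ends and was counted per exon. Because the cDNA is the same, these are repeat measurements and not further cells. Figla had 16.7, 92.4, 114.7, 52.2 and 119.6 exon RPM in O10, O17, O21, O28 and O30, beside 36.04, 107.7, 90.7, 72.8 and 118 RPM in the 3′ libraries. Sohlh1 had 0, 30.0, 41.3, 3.70 and 41.6 exon RPM in the same order, beside 2.67, 42.8, 57.5, 3.70 and 43.9 RPM. For Figla and Sohlh1, oocytes O10 and O28 were low and the other 3 were high in both kinds of library. The 0 in O10 came from 6666028 reads and allows up to 0.450 RPM (3 reads). Foxo3 was highest in O10, with 220 exon RPM against 71.3 to 91.3 in the other 4, and with 460 RPM against 219 to 290 in the 3′ libraries. The order differed for Tbpl2, which was highest in O21 in the 3′ libraries (46.9 RPM, 1.72 exon RPM) and in O17 by exon RPM (11.95, beside 40.4 RPM).

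**Figure D3:**
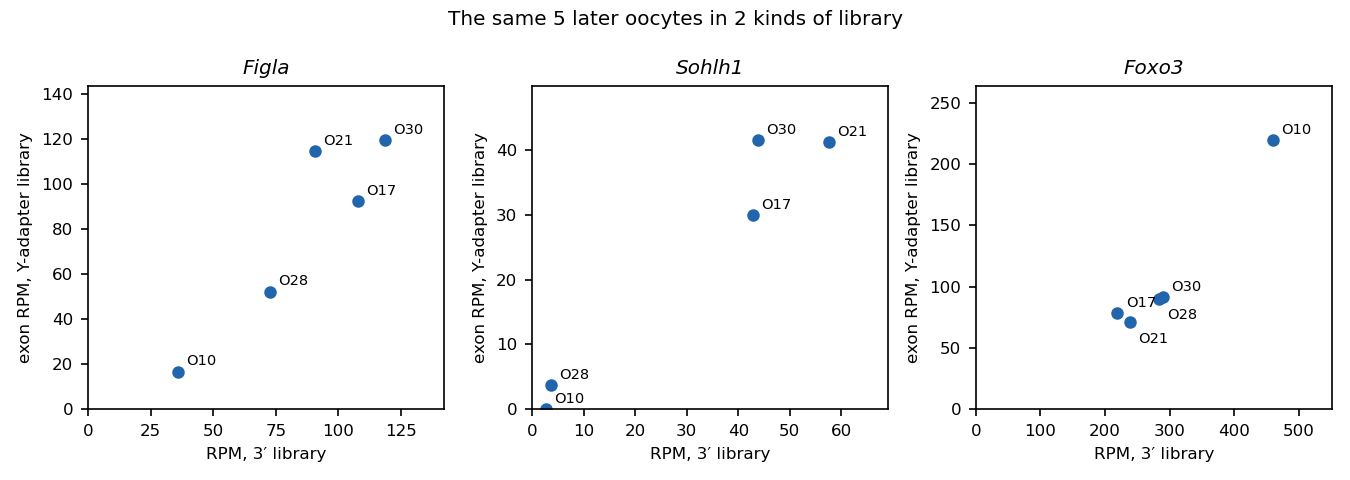
Figla, Sohlh1 and Foxo3 in 5 later oocytes, with RPM of the 3′ library on the horizontal and exon RPM of the Y-adapter library on the vertical axis, both linear. Each point is 1 oocyte, named by its number. O10 has the lowest Figla and Sohlh1 and the highest Foxo3 in both.

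These libraries show how much of each gene was covered. Of the annotated exon entries, which can overlap between transcripts, the 5 oocytes together had reads in 8 of 8 for Sohlh1, 4 of 5 for Figla, 14 of 15 for Nobox, 8 of 9 for Lhx8 and 10 of 10 for Tbpl2. Coverage was poorer for Foxo3, with 7 of 14, Sohlh2, with 4 of 11, and Taf4b, with 2 of 15. Per the study, mESC libraries made in this way held more reads toward the 3′ ends of genes. Reads that joined exons were seen at 6 junctions of Sohlh1, 8 of Nobox, 7 of Lhx8, 7 of Tbpl2, 2 of Sohlh2, 2 of Foxo3, 1 of Figla and 1 of Taf4b. In 10 mESC libraries of the same kind, no read fell on Figla, Sohlh1, Nobox, Lhx8 or Tbpl2. Taf4b had 1195 reads over all 10 libraries, in 9 of its 15 entries, with 557 of the reads in 1 library. Foxo3 had 460 reads in 9 libraries and Sohlh2 430 reads in 4. Reads that joined exons in mESCs numbered 0 for Taf4b, 0 for Foxo3 and 4 for Sohlh2, so spliced message of Taf4b and Foxo3 was not seen there. The Taf4b exons covered thus differed between oocytes and mESCs in number, at different read counts, and the difference was not tested.

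Oocytes prepared without sections had low Sohlh1, as later oocytes did. In the dataset with LCM and dissociated cells, the 8 LCM oocytes of later follicles had log2 means of 6.08 ± 1.57 (SD, n = 8) for Figla and 2.80 ± 2.19 (SD, n = 8) for Sohlh1. The 14 dissociated grown oocytes had 6.31 ± 0.39 (SD, n = 14) for Figla and 0.58 ± 0.97 (SD, n = 14) for Sohlh1, with 4 Sohlh1 reads in 4 cells and none in the other 10, at 204271 to 545479 reads per library. Sohlh2 did not follow Sohlh1 and stood at 2.45 ± 2.07 (SD, n = 8) and 3.17 ± 1.23 (SD, n = 14). Nobox stood at 8.29 and 8.65, Lhx8 at 8.20 and 8.34, Tbpl2 at 6.25 and 5.62, Foxo3 at 6.98 and 6.24, and Taf4b at 5.58 and 5.13 in the LCM and the dissociated oocytes. The dissociated oocytes are labelled only as grown, and per the study's methods they came from fully grown follicles. The 2 preparations are set side by side without a test.

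**Figure D4:**
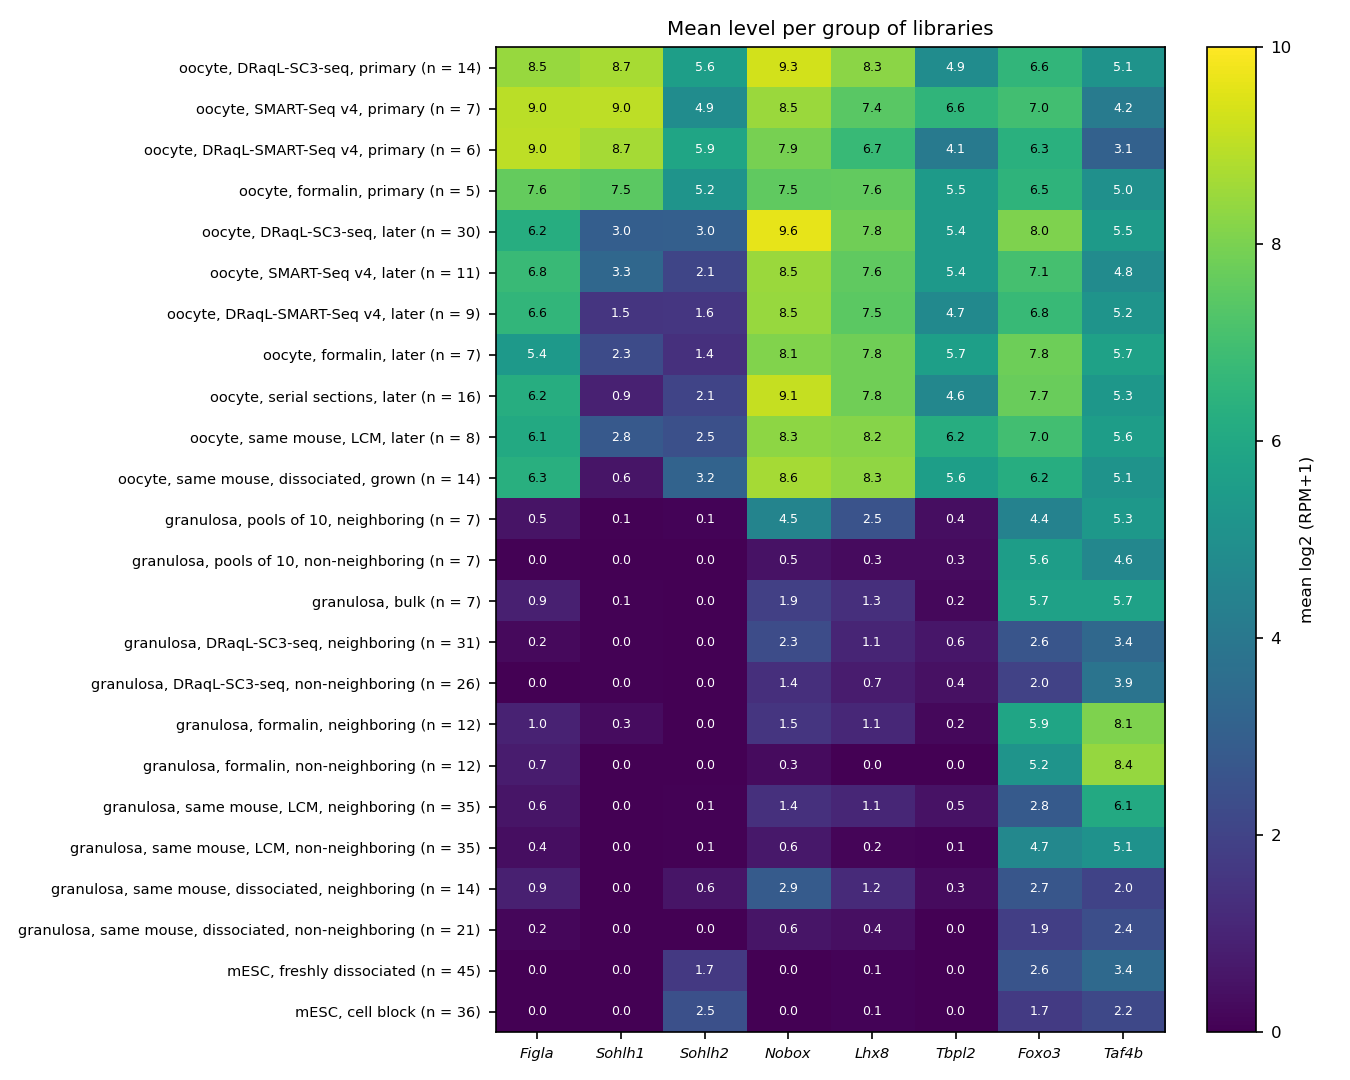
Mean log2 (RPM+1) of the 8 genes (columns) in groups of libraries (rows), with the number of libraries and a color scale from 0 to 10. Columns are to be read from top to bottom, since levels of different genes are not on a common length scale. Sohlh1 is at 7.48 to 9.02 in primary oocytes and at 3.33 or less in every other group, and Taf4b is highest in formalin-fixed granulosa cells.

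Not all 8 genes were absent from mESCs. No read of Figla, Sohlh1 or Nobox was found in any of 81 cells, whose pooled reads allow up to 0.0188 RPM (3 reads). Lhx8 had 12 reads in 10 cells and Tbpl2 2 reads in 2 cells. Sohlh2, in contrast, was read in 51 of 81 mESCs, at log2 means of 1.66 ± 2.00 (SD, n = 45) in fresh and 2.45 ± 2.74 (SD, n = 36) in cell-block cells, beside 3.02 ± 1.27 (SD, n = 30) in later oocytes of DRaqL-SC3-seq. Foxo3 had 2.61 ± 1.78 and 1.70 ± 1.58 and Taf4b 3.43 ± 2.03 and 2.16 ± 2.11 in the same 2 groups, below their levels in oocytes of DRaqL-SC3-seq. The pluripotency markers of these cells summed to medians of 1524 and 1499 RPM.

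Compared with granulosa cells, all 8 genes had a mean log2 level at least 1 higher in the oocytes of DRaqL-SC3-seq, where 73% of all genes did, and none was lower, where 5.53% were. After formalin 7 of 8 were higher, Sohlh2 among them although it missed the filter for low levels, where 52.3% of the genes that passed the filter were. Taf4b was the exception, 2.81 lower in formalin oocytes than in formalin granulosa cells, a direction that 9.37% of genes showed. In SMART-Seq v4, 8 were higher and 0 lower (74.3% and 4.55% of genes that passed the filter), in DRaqL-SMART-Seq v4 7 and 0 (50% and 12.2%), in LCM cells of the dataset with dissociated cells 7 and 0 (59.5% and 14%), and in the dissociated cells 7 and 0 (59.3% and 17.7%). The filter was missed by Sohlh2 in DRaqL-SMART-Seq v4, by Sohlh1, Sohlh2 and Tbpl2 in those LCM cells and by Sohlh1 in the dissociated cells. The gene that was neither was Taf4b in DRaqL-SMART-Seq v4 and in those LCM cells, with differences of -0.44 and -0.015, and Sohlh1 in the dissociated cells, with 0.58. Sohlh1 was the rarest in granulosa cells, with reads in 3 of 330 single cells, or 0.909% (0.188% to 2.63%). Sohlh2 was read in 9 cells, Tbpl2 in 33, Figla in 37, Lhx8 in 63, Nobox in 92, Foxo3 in 220 and Taf4b in 263.

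Taf4b and Foxo3 were thus the 2 genes with broad expression in granulosa cells. Taf4b had log2 means of 8.25 ± 1.06 (SD, n = 24) in formalin-fixed granulosa cells, each of which held reads, of 5.73 ± 0.73 (SD, n = 7) in bulk granulosa and of 3.60 ± 3.38 (SD, n = 57) in DRaqL-SC3-seq granulosa cells, where 39 of 57 had reads. In the last dataset the mean was 1.76 higher in oocytes, but RPM of summed reads was higher in granulosa cells, at 99.5 against 51.6. Foxo3 had 5.73 ± 0.15 (SD, n = 7) in bulk granulosa. In bulk samples, fewer cells of a type and less RNA per cell cannot be told apart.

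Reads of Nobox and Lhx8 in granulosa cells were set beside reads of the oocyte markers. In summed reads, Nobox, Lhx8 and the oocyte markers were each higher in neighboring than in non-neighboring cells in 8 of 8 single-cell datasets, and Figla in 7. Summed reads can be carried by a few cells. By the mean log2 level Nobox was higher in 7 of 8, not in SMART-Seq v4 (0.95 against 1.12), and the median marker sum of the dissociated cells was 157 RPM in neighboring and 155 RPM in non-neighboring cells, with 1 neighboring cell at 19611 RPM. In DRaqL-SC3-seq, the 31 neighboring cells had 93.7 RPM of Nobox and 4176 RPM of oocyte markers in their summed reads, and the 26 non-neighboring cells had 24.5 and 1122 RPM. Nobox was 22.4 and 21.8 RPM per 1000 RPM of oocyte markers in the 2 positions, against 27.6 in the 44 oocytes. These oocytes include the 14 primary ones, whose median marker sum was 9447 RPM against 36922 RPM in later oocytes. The granulosa cells, per the study, came from secondary to early antral follicles. The oocyte ratios given here are therefore not those of later oocytes alone, and the sets are unlike. Over all 8 datasets this ratio was not constant, and ran from 4.08 to 23.7 in neighboring and from 0 to 30.98 in non-neighboring cells, where it rests on fewer reads. Lhx8, by the same measure, was 3.36 and 1.33 in the 2 positions of DRaqL-SC3-seq, against 10.03 in the oocytes. It ran from 1.24 to 11.1 in neighboring and from 0 to 4.96 in non-neighboring cells of the 8 datasets. Figla was 0.0875 in neighboring cells of DRaqL-SC3-seq against 6.29 in the oocytes of both stages. The primary oocytes among them had a higher mean log2 level of Figla than the later ones (8.46 against 6.23). In neighboring cells Figla reached 6.08 in SMART-Seq v4 and 8.76 in LCM cells of the dataset with dissociated cells. For those datasets the ratio was not computed in oocytes. The part of oocyte RNA in the Nobox and Lhx8 reads of granulosa libraries was not tested.

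The 14 pools of granulosa cells, 7 in each position, are replicates by their labels, and comparing them asks whether any of the genes differed between cells next to the oocyte and cells away from it. Nobox had 11.2, 2.71, 2.75, 59.5, 165, 115.6 and 15.5 RPM in the 7 neighboring pools and 0.240, 1.40, 0, 0, 1.06, 0.787 and 0 RPM in the 7 non-neighboring pools. The groups did not overlap, as was the case with neighboring pools higher for 0.577% of 9704 genes. Lhx8 had 3.40, 1.13, 1.10, 86.4, 51.7, 1.14 and 0.165 RPM in neighboring pools and at most 0.600 RPM in the others, with overlap through 1 neighboring pool.

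By edgeR's quasi-likelihood test over 9704 genes, with Benjamini-Hochberg adjustment, 44 genes were higher in neighboring pools (0.453% of those tested) and 0 were lower, with 402 genes under an unadjusted p of 0.05 in either direction. Without neighboring and non-neighboring pool 4, 5 or 6, edgeR called 6, 5 or 10 genes, and 3 with the pool number as a block. DESeq2 called 416 genes (2.27% higher and 0.835% lower), 304 of them higher. Of the 8 genes, 3 had enough reads to be tested by edgeR and 0 were called. Nobox was 6.59 higher on the log2 scale (SE 1.57, adjusted p = 0.0768 by edgeR), Foxo3 differed by -0.62 (SE 0.94, adjusted p = 0.998) and Taf4b by 0.84 (SE 1.00, adjusted p = 0.998). DESeq2 called 2 of them, Nobox with a log2 difference of 6.70 (adjusted p = 3.01e-06) and Lhx8 with 6.45 (adjusted p = 3.15e-04). Whether these pools came from separate follicles or mice is not labelled, so p-values measure the spread between pools only.

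**Figure D5:**
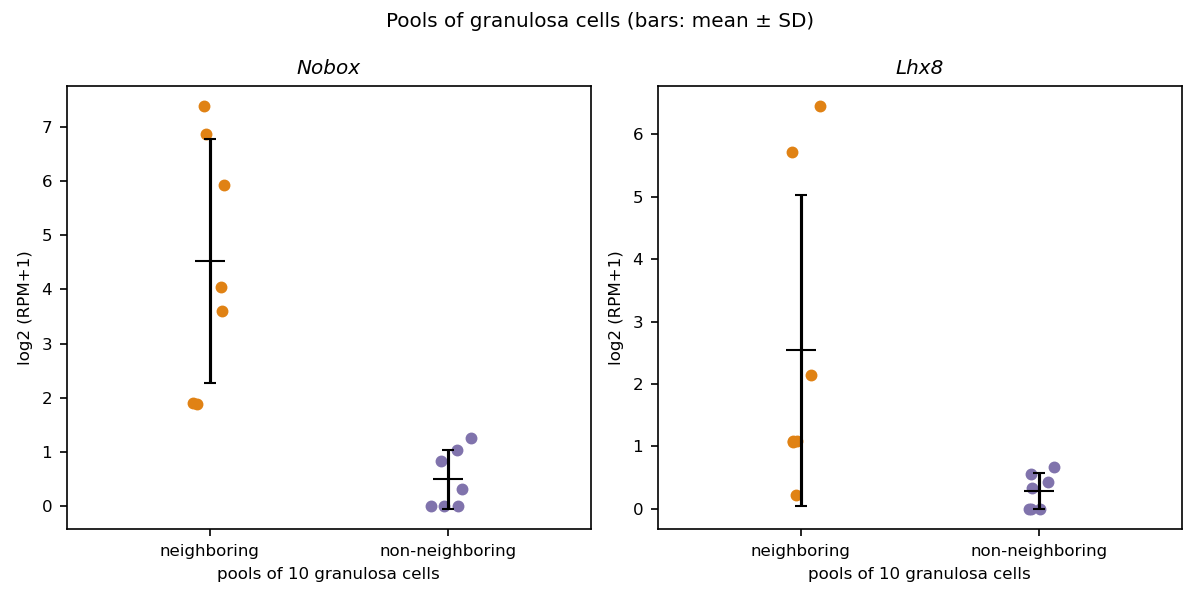
Nobox and Lhx8 as log2 (RPM+1) on the vertical axis in the 7 neighboring and 7 non-neighboring pools of granulosa cells on the horizontal axis. Each point is 1 pool and the bars give mean ± SD. For Nobox the groups do not overlap, and for Lhx8 they do.

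Oocyte genes were also higher in the neighboring pools. Of 14 oocyte markers tested, 9 were higher in neighboring pools by edgeR, among them Gdf9, the oocyte growth factor (6.28, SE 1.12, adjusted p = 0.0197), while 0 of 5 granulosa markers tested were called. The marker calls changed with the pools included, and 0, 2 and 0 of the 14 were called without pool 4, 5 or 6, 4 to 6 without pool 1, 2, 3 or 7, and 1 (Gdf9) with the pool number as a block. Oocyte markers summed to 3693 RPM in neighboring and 70.2 RPM in non-neighboring pools. Nobox was 13.3 RPM per 1000 RPM of markers in neighboring pools, and 5.91 in the others, where it rests on few reads. Of the general partners listed below, 0 of 8 tested were called.

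Most of the genes known to depend on these factors were higher in later oocytes. From a list of 14 genes whose levels are known to be low in ovaries without Figla, Nobox, Sohlh1 or Lhx8, 9, 9, 11 and 10 were higher in later oocytes of DRaqL-SC3-seq, SMART-Seq v4, DRaqL-SMART-Seq v4 and formalin, and 0, 1, 0 and 0 were lower. Among all genes 33.3%, 33%, 35.8% and 27.4% were higher and 14.6%, 15.7%, 21.4% and 24.2% lower. The median difference of the list was 1.94, 2.69, 4.42 and 2.66, against 0.38, 0.34, 0.33 and 0.01 over all genes. Gdf9 was 3.01, 3.13, 5.49 and 3.49 higher, Bmp15, its close relative, 4.04, 7.29, 9.34 and 4.71, and Mos, the kinase that holds the egg in meiosis, 3.57, 5.45, 4.90 and 4.33. Zp2, a zona pellucida gene that needs Figla, differed by -0.64, -0.69, -0.42 and 0.30, and Padi6, a maternal factor of the early embryo, by -0.33, -1.04, 0.20 and -0.05. The list shares 6 genes with the oocyte markers, so the 2 are not separate observations.

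Of 11 paralogs and partners of the core promoter and other factors, 9, 10, 9 and 11 passed the filter. Of these 5, 5, 6 and 5 were higher in later oocytes, where 33.3%, 33%, 35.8% and 27.4% of all genes were, and 1, 1, 2 and 3 were lower, where 14.6%, 15.7%, 21.4% and 24.2% were. Gtf2a1l, the germ cell paralog of TFIIA, had a log2 level of 1.82 ± 1.00 (SD, n = 14) in primary and 6.20 ± 0.87 (SD, n = 30) in later oocytes of DRaqL-SC3-seq, and had no read in any primary oocyte of DRaqL-SMART-Seq v4, against 7.02 ± 0.38 (SD, n = 9) in the later ones. Tbp, the general TATA-binding protein, was higher by 1.18, 3.05, 4.21 and 2.38 and Taf4, the general paralog of Taf4b, by 2.98, 2.51, 1.85 and 4.25, while Tbpl1, another member of that family, differed by -0.34, -0.65, -1.44 and -1.58. Tbp thus differed more between the stages than Tbpl2 in each dataset, and Taf4 more than Taf4b in each but DRaqL-SMART-Seq v4. Other general factors were mixed. Gtf2b differed by 2.38, 1.91, 1.75 and 3.57, Gtf2a1 by 0.78, 0.10, 1.34 and 0.62, and Gtf2a2 by -1.08, -0.89, 0.94 and -1.15. Tcf3, which encodes a bHLH partner, differed by -0.56, -1.45, -1.40 and -1.50.

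Of Stat3, Dynll1 and Sub1, which are used together with some of the 8 genes to turn cells into oocyte-like cells, 1, 2, 1 and 0 were lower in later oocytes and 0 were higher. Stat3, a cytokine-activated factor, differed by -2.13, -1.84, -1.90 and -0.33, and Sub1, a coactivator, by 0.44, 0.11, 0.18 and 0.94. Of 10 genes of the PI3K and FOXO3 axis, 2, 4, 1 and 3 were lower and 1, 2, 2 and 0 higher, with medians of -0.06, -0.24, -0.12 and -0.37. Among all genes 14.6%, 15.7%, 21.4% and 24.2% were lower and 33.3%, 33%, 35.8% and 27.4% higher. Tsc2, a brake on the mTOR kinase, was lower in each dataset, with differences of -2.65, -2.37, -2.08 and -1.54. Bcl2l11, a cell death gene and FOXO target, was higher by 2.03, 2.46, 2.24 and 0.49, and Kit, the receptor upstream of PI3K in the oocyte, differed by -0.88, -0.68, -0.93 and -0.27.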

How the data were processed

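Samples were 577 libraries of mouse cells, of which 562 were counted per gene and 15 per exon. Per the labels and the study's methods, the authors trimmed reads with fastp 0.20.0 and cutadapt 1.16, aligned them to GRCm38 with HISAT2 2.1.0, counted reads within 10 kb of 3′ ends with HTSeq 0.10.0, and counted exons and junctions with featureCounts 2.0.1. The deposited values are raw read counts per gene, exon or ERCC RNA, and whether counting used strand is not given in the sources used here. RPM was computed over the 22060 protein-coding genes. Noncoding genes, and their share of reads, stayed out of the totals. Single-cell groups were compared by mean log2 (RPM+1), with a filter of a mean of at least 1 over the cells of a dataset, and without a test. Pools were compared with edgeR 4.0.16 on counts (quasi-likelihood F-test, TMM scaling, filterByExpr, adjusted p of 0.05), and with DESeq2 1.42.0 (R 4.3.3) as an alternative. The test scripts were tried on simulated counts. The 8 genes, the gene lists and the tests were chosen with earlier results of these data known. Named genes are the 8 members, genes of the lists of paralogs and partners, companions, dependent genes, PI3K and FOXO3 axis and cell type markers, and for each member the 3 genes with the highest r over 44 oocytes. One listed theca marker was not analysed here. Protein-coding reads per library ran from 12748 (dissociated granulosa) to 17506401 (serial sections), which sets the smallest RPM that can be seen. Alternatives changed the pseudocount, averaging, scaling, depth, threshold, filter, block and the libraries included, and those on alike pairs, pools and single later oocytes were chosen after seeing the data.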

Additional observations from a re-analysis of the deposited data

Results flagged for a closer look

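Within 70 sets of 4 to 10 libraries, each a gene in a group, 11 had a highest or lowest log2 (RPM+1) value that stood away from the rest by Dixon's test, where chance alone gives about 1 in 20. In 4 of the 11 all other libraries were at 0, so that 1 or 2 reads in 1 library fix the outcome and that share does not apply. In DRaqL-SMART-Seq v4 primary oocytes, Tbpl2 was at 0.69 in 1 oocyte and at 4.34 or more in the other 5. In formalin-fixed primary oocytes, Sohlh1 was at 5.06 in 1 oocyte and at 7.63 or more in the other 4. Among the formalin-fixed later oocytes, replicate 3 had the lowest Nobox (5.60, the next 8.16), the lowest Foxo3 (4.78, the next 7.54) and the highest Lhx8 (9.02, the next 7.82), and it also had the fewest protein-coding reads per ERCC read, 0.683. In the bulk granulosa samples, Figla was at 4.04 in 1 sample and at 1.28 or less in the others, and Sohlh1 was at 0.40 in 1 sample and at 0 in the others. In the neighboring pools of granulosa cells, Figla reached 2.29 (the next 0.75) and Sohlh1 0.35 in a single pool, with Sohlh1 at 0 in the rest. In the non-neighboring pools, Figla was at 0.34 and Sohlh1 at 0.26 in a single pool each, and both were at 0 in the rest. Of these values, those of Sohlh1 in pools and bulk samples and that of Figla in the non-neighboring pools rest on few reads. Causes were not tested.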

How the results depend on the processing

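Alternatives were recomputed one at a time; averaging or leaving out the alike libraries, SMART-Seq v4 later replicate 9 and formalin later replicate 3 were chosen after seeing the data. Of the recomputed counts that answer a comparison, 74 stayed within 1.5 times and 11 did not, and of those for single genes 477 stayed the same, 67 moved, 5 that were at least 2-fold reversed and 1 (Nobox in pools by DESeq2) gained a call, besides Lhx8, which edgeR did not test. As RPM, the 3 bHLH genes stayed at least 2-fold lower in later oocytes under each pseudocount, scaling, thinning and leave-one-out tried, except where SMART-Seq v4 later replicate 9 was the only later cell. The ranges in DRaqL-SC3-seq, SMART-Seq v4, DRaqL-SMART-Seq v4 and formalin, in that order and without that exception, were -2.88 to -2.09, -2.36 to -2.06, -2.63 to -2.13 and -2.52 to -1.99 for Figla, -6.47 to -4.29, -6.47 to -3.80, -8.75 to -4.92 and -6.29 to -3.56 for Sohlh1, and -2.74 to -1.40, -3.35 to -1.56, -5.32 to -2.48 and -5.72 to -1.83 for Sohlh2. With replicate 9 alone, Figla differed by -0.37, Sohlh1 by -0.40 and Sohlh2 by -3.81, and 2 members were lower. Per ERCC read the count of lower genes in SMART-Seq v4 was 1, also without replicate 9, and 2 in DRaqL-SMART-Seq v4 and after formalin. Per ERCC read Tbpl2 turned to 0.63 in SMART-Seq v4 (0.86 without replicate 9), and Figla to 0.70 in DRaqL-SMART-Seq v4 and to 0.48 after formalin without later replicate 3. The median over cells of protein-coding reads per ERCC read was 3.88, 10.6 and 3.84 times higher in later than in primary oocytes of SMART-Seq v4, DRaqL-SMART-Seq v4 and formalin. Tbpl2 in SMART-Seq v4 missed the 2-fold limit with a pseudocount of 10, and Foxo3 after formalin missed it without primary replicate 1 or 2. Taf4b in oocytes against granulosa cells of DRaqL-SC3-seq turned to -0.93 with summed counts. Leaving out each primary oocyte gave counts of lower genes of 4 in SMART-Seq v4, 3 in DRaqL-SMART-Seq v4 and 3 after formalin each time. TMM scaling moved the median difference of all genes from 0.38 to 0.27 in DRaqL-SC3-seq and from 0.33 to 0.54 in DRaqL-SMART-Seq v4. In the pools, DESeq2 called 416 genes and 2 of the 8 members, and no filter on low counts gave 56 genes, beside 44 in the main test. Leaving out each pool number gave 5 (without replicate 5) to 34 genes (without replicate 2), with 30, 27, 6, 10 and 22 without replicates 1, 3, 4, 6 and 7, and Nobox adjusted p-values of 0.0871 to 0.356 (edgeR). With the pool number as a replicate block, 3 genes were called and Nobox had a log2 difference of 6.86 (adjusted p = 0.266 by edgeR). Pools of the same number had r between 0.03 and 0.24, 2 of 7 over 0.1, and 4 of 7 correlated best with their own number. These values do not decide whether pools of the same number are pairs. The main test took all pools as unpaired, so its calls depend on that choice, as the fit with the block shows. The cause of these changes was not tested. Depth limits the low values most, since 1 read in the shallowest later library of DRaqL-SMART-Seq v4, of 133799 reads, is 7.47 RPM, above the median Sohlh1 of the later oocytes of that dataset (1.49 RPM).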
